A study of Mus musculus with 12 samples.

Results

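The NEDD8 pathway inhibitor MLN4924 was compared with its solvent DMSO in GC-2 cells held at 1% oxygen. The comparison used 6 of the 12 RNA-seq libraries of the study, 3 with MLN4924 in hypoxia and 3 with DMSO in hypoxia. GC-2 is a mouse line described by the labels as spermatogonia of type B, and it is known to carry introduced SV40 large T antigen and mutant p53 genes, which all groups share. Both hypoxia groups spent 24 h at 1% oxygen, the treated group with 1 µM MLN4924 and the control group with DMSO. The other 6 libraries are the same pair of treatments in normoxia, and they enter only the comparison of the inhibitor effect between oxygen levels. Within a group the 3 libraries are biological replicates, in the submitters' words. Genes were included where at least 3 of the 6 hypoxia libraries reached 1 FPKM (fragments per kilobase of transcript, scaled to the mapped fragments of the library), which kept 11696 of 24770 gene symbols.

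MLN4924, also called pevonedistat, blocks the enzyme that activates NEDD8, a small protein related to ubiquitin. NEDD8 is attached to cullins, the scaffolds of the cullin-RING ubiquitin ligases, and these ligases need it to mark their substrates for the proteasome. Known substrates of cullin-RING ligases include NRF2 (through CUL3 and KEAP1), the HIF alpha subunits (through CUL2 and VHL), the licensing factor CDT1, the small GTPase RHOA and the inhibitor of NF-kB. Substrates are controlled as proteins, and the measurements here are of RNA.

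One library, DMSO hypoxia replicate 1, was unlike the rest. It held 633597 FPKM in all, against 530452 to 550244 in the other 5 hypoxia libraries, and it correlated less with its group (mean Spearman rho across genes 0.924) than the other 5 did with theirs (0.948 to 0.980). Its difference from the group depended on how long a transcript was (rho -0.50 across genes). Transcripts in the shortest of 5 length bins lay 0.36 log2 units above the other DMSO hypoxia libraries and those in the longest bin lay at -0.40. In this library 50 genes were listed at 0 although each of the other 5 libraries held at least 5 FPKM, among them the proliferation gene Mki67, and at most 3 such genes occurred in any other hypoxia library. With all libraries, the median log2 fold change of the MLN4924 effect ran from -0.07 in the shortest bin to 0.11 in the longest; without replicate 1 these medians were 0.02 and -0.05. Counts of list members below are therefore given with and without it.

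**Figure D1:**
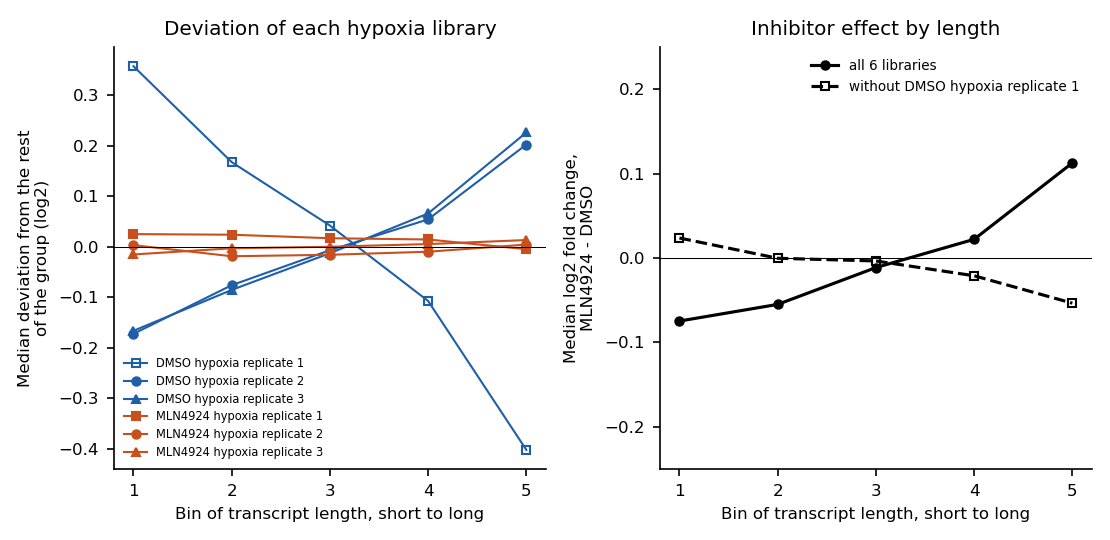
Median deviation of each hypoxia library from the rest of its group (left, log2 units) and median MLN4924 effect (right, log2 fold change) in 5 bins of transcript length from short to long. DMSO hypoxia replicate 1 runs from 0.36 to -0.40 while the 3 MLN4924 libraries stay near 0, and the slope of the effect turns when replicate 1 is left out.

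With MLN4924 in hypoxia 631 genes were higher and 659 were lower, 11.0% of those tested (5.40% higher, 5.63% lower). A gene counts as changed where its adjusted p from limma on log2(FPKM + 1) was under 0.05, and "rose" and "fell" are used only for such genes. Of these, 122 rose and 96 fell at least 2-fold on the FPKM + 1 scale, which makes changes of genes near 1 FPKM smaller than their ratio of FPKM. The median log2 fold change of all tested genes was -0.00 and the median standard error (SE) was 0.15. Without DMSO hypoxia replicate 1 the counts were 1532 higher and 1372 lower (24.8% of tested genes), and 1283 of the 1290 genes kept their call. With each of the other libraries left out in turn the counts were smaller: 417 and 384 without DMSO hypoxia replicate 2, 230 and 195 without DMSO hypoxia replicate 3, and 92 and 69, 134 and 97, and 80 and 57 without MLN4924 hypoxia replicates 1, 2 and 3. The 3 libraries of one group lay wholly above or below those of the other for 2152 (18.4%) and 2370 (20.3%) genes.

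**Figure D2:**
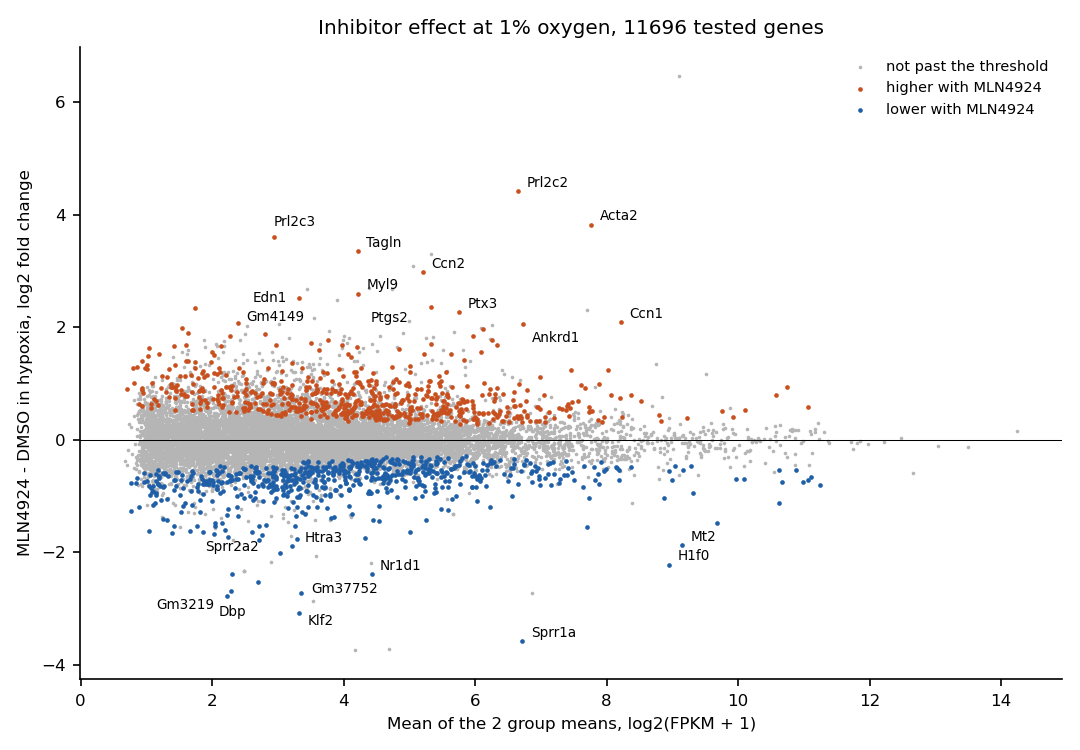
Log2 fold change of each tested gene (vertical axis) against its mean level over both hypoxia groups (horizontal axis, log2(FPKM + 1)). Orange points are the 631 genes that were higher and blue points the 659 that were lower with MLN4924; names mark most of the 24 genes with the largest called changes.

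Few transcripts of the inhibited pathway itself changed. Of 24 genes for conjugation and removal of NEDD8, 0 rose and 1 fell, and of 39 cullins and substrate receptors 1 rose and 0 fell, against background shares of 5.40% and 5.63%. Without DMSO hypoxia replicate 1, 2 rose and 3 fell of the 24, and 5 rose and 4 fell of the 39, near the shares of all genes in that fit (13.1% and 11.7%). Nae1, one subunit of the enzyme that MLN4924 inhibits, was at 16.8, 12.9 and 11.7 FPKM in DMSO replicates 1 to 3 and at 17.1, 20.2 and 17.8 in MLN4924 replicates 1 to 3. Its log2 fold change was 0.40 ± 0.15 (SE, adjusted p = 0.139) with all libraries and 0.54 without DMSO hypoxia replicate 1 (adjusted p = 0.013). The log2 fold changes of Uba3, the catalytic subunit, of Nedd8, and of Ube2m, the NEDD8-conjugating enzyme, were -0.03, -0.16 and 0.02, with adjusted p of 0.913, 0.508 and 0.91, and their groups overlapped. Cops7a, a subunit of the COP9 signalosome that removes NEDD8, fell from 25.8 ± 1.19 (SD, n = 3) to 19.3 ± 1.47 FPKM (log2 fold change -0.40, adjusted p = 0.0391). Skp2, an F-box receptor of the SCF ligases that targets p27, rose from 18.3 ± 1.08 to 25.1 ± 1.85 (0.43, adjusted p = 0.0345). Both calls ended when any one of the other 5 libraries was left out.

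Genes of contractile cells and targets of SRF and YAP were among the largest increases. SRF and YAP are transcriptional regulators that respond to actin dynamics and cell tension. Acta2, which encodes smooth muscle alpha-actin, was at 27.4, 31.9 and 24.4 FPKM with DMSO and at 423, 392 and 404 with MLN4924, a log2 fold change of 3.82 ± 0.11 (adjusted p = 1.47e-04). The groups lay far apart, with the lowest treated library above 10 times the highest control. Tagln, the actin-binding protein transgelin, went from 2.28, 2.67 and 2.01 to 34.9, 30.1 and 33.4 FPKM (3.35 ± 0.12), and Myl9, a myosin light chain, from 5.56, 3.59 and 3.91 to 33.4, 29.4 and 30.3 (2.6 ± 0.15). Among YAP targets, Ccn2, a matricellular protein, was at 7.12, 6.98 and 7.84 FPKM with DMSO and at 68.1, 59.2 and 67.3 with MLN4924 (2.99 ± 0.09). Its relative Ccn1 rose from 112 ± 2.32 to 483 ± 16.1 (2.10), Ankrd1, an ankyrin repeat protein of muscle, from 40.2 ± 3.89 to 170 ± 2.22 (2.06), and Edn1, the vasoconstrictor endothelin 1, from 1.97 ± 0.123 to 16.0 ± 1.62 (2.51). None of these 7 genes lost its call under any of 15 alternatives, including each library left out.

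Of 36 tested genes of the YAP, SRF and cytoskeleton list, 19 rose and 2 fell, with a median log2 fold change of 0.89 against -0.00 for all genes. Without DMSO hypoxia replicate 1, 26 rose and 2 fell, and with each other library left out 11 to 17 rose, the fewest without MLN4924 hypoxia replicate 1. Only 1 group carried 2 of the 36, among them the risen Actg2, past the filter. Without these 2, 18 of 34 rose and 2 fell (median 0.89). Srf itself rose from 12.3 to 24.5 FPKM and the focal adhesion gene Zyx from 80.0 to 172. The 2 that fell encode GTPases: Rhob went from 56.1, 60.0 and 47.7 to 20.4, 19.2 and 19.0 FPKM (-1.43 ± 0.10), and Rhoa, whose protein is a known cullin-RING substrate, from 389, 322 and 325 to 240, 236 and 236 (-0.53 ± 0.09, adjusted p = 0.0214).

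The promoters of 4 of these genes are shown because they hold the known binding letters of the list's regulators within 250 bases before the start site (RefSeq, GRCm38.p6). GGAATG, the site of the TEAD factors that YAP binds, searched on both strands, was in the promoters of 6 of the 14 risen members with an entry and in 12.4% of 8873 tested genes. The CArG box, the site of SRF, was in 4 of the 14 and in 1.35% of tested genes. Among all 30 list members with an entry, risen or not, 15 held GGAATG and 5 the CArG box. Capitals mark the match in each stretch, read along the gene: Acta2 (chr19:34255494-34255539, minus strand) and Edn1 (chr13:42301249-42301294, plus strand) hold the TEAD letters, and Myl9 (chr2:156775283-156775332, plus strand) and Cnn2 (chr10:79988524-79988573, plus strand), the calponin gene that rose from 46.0 to 93.1 FPKM, hold the CArG box. A match describes the letters only and is not evidence of binding.
Acta2: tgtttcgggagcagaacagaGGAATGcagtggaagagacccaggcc
Edn1: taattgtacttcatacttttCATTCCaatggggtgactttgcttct
Myl9: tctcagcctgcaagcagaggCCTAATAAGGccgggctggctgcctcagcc
Cnn2: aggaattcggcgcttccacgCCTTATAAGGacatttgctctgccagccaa

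The other large increases were in genes outside that list. Prl2c2, a proliferin of the prolactin family, had the largest called increase, from 11.1, 7.14 and 6.52 to 206, 183 and 186 FPKM (4.41 ± 0.18, adjusted p = 2.73e-04). Its near-identical relative Prl2c3 was listed at 0, 0 and 0.55 FPKM with DMSO and at 12.3, 14.9 and 12.2 with MLN4924. Prl2c3 reached the filter only through the MLN4924 group, so it could only be higher. Fragments of these paralogs are hard to assign, so the split between them is uncertain. Ptx3, a pentraxin of innate immunity, went from 17.9 ± 3.30 to 88.8 ± 4.86 (2.26), and Ptgs2, the inducible cyclooxygenase, from 17.4, 12.1 and 8.24 to 59.0, 67.6 and 71.0 (2.35 ± 0.25). The gene model Gm4149 completed the 12 largest increases, and its call ended under 8 of 14 alternatives; it was listed at 0 in DMSO hypoxia replicate 1 and at 1.73 and 1.79 in the others.

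**Figure D3:**
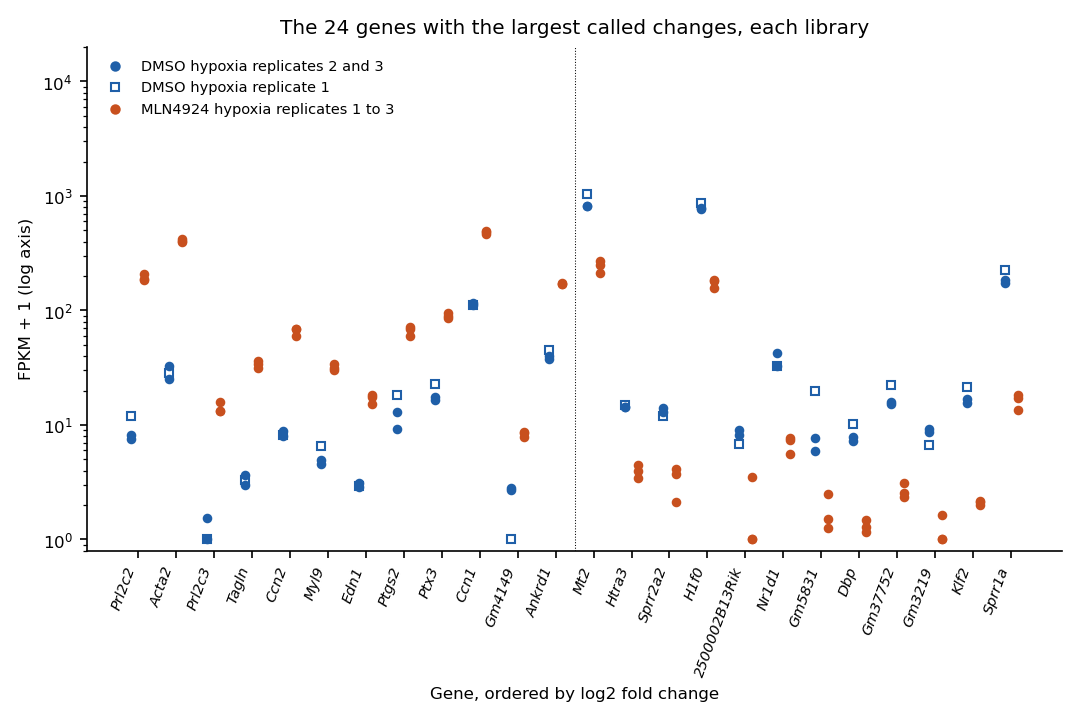
Level of the 12 most increased and 12 most decreased called genes in each of the 6 hypoxia libraries (FPKM + 1, log axis). Blue points are DMSO (open square, replicate 1) and orange points are MLN4924; the groups of 3 do not overlap for any of the 24 genes, which the choice of these genes required.

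NRF2 targets rose broadly. NRF2 is the regulator of glutathione synthesis and detoxification whose protein is normally degraded through KEAP1 and CUL3. Of 38 tested targets 23 rose and 0 fell, with a median log2 fold change of 0.80, and 32 rose without DMSO hypoxia replicate 1. With the other libraries left out 8 to 21 rose, the fewest without MLN4924 hypoxia replicate 1. Srxn1, which repairs oxidised peroxiredoxins, was at 26.4, 29.1 and 26.4 FPKM with DMSO and at 108, 109 and 113 with MLN4924 (1.97 ± 0.07, adjusted p = 2.09e-04). Txnrd1, the cytosolic thioredoxin reductase, went from 29.0, 23.0 and 26.9 to 108, 88.8 and 93.6 (1.84 ± 0.12), and Gclm, the modifier subunit of the enzyme that starts glutathione synthesis, from 38.5, 35.5 and 38 to 124, 121 and 122 (1.69 ± 0.07). Nqo1, a quinone reductase, rose from 18.4 to 54.3 FPKM and Hmox1, heme oxygenase 1, from 195 to 338. The heavy and light ferritin chains Fth1 and Ftl1 rose by 0.80 and 0.58 on the log2 scale. Gsta1 and Gsta2 rose from means of 0.190 and 0.030 FPKM to 2.38 and 2.03, with assignment between these paralogs uncertain. Both reached the filter only through the MLN4924 group, so they could only differ; without them 21 of 36 targets rose (median 0.76). Nfe2l2, the gene of NRF2, was at 45.6 ± 1.97 and 49.1 ± 0.330 FPKM (0.10, adjusted p = 0.365), and Keap1 changed by -0.21 on the log2 scale without passing (adjusted p = 0.577).

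The antioxidant response element core TGACNNNGC, the letters that NRF2 with its MAF partners is known to bind, was in 3 of 17 risen targets with a promoter entry on either strand, and in 13.9% of tested genes. Among all 30 listed targets with an entry, risen or not, 7 held it. It is shown for the 2 with the largest increases among those 3, Txnrd1 (chr10:82859094-82859142, plus strand; in 1 of its 3 entries) and Gclm (chr3:122245403-122245451, plus strand), with the match in capitals.
Txnrd1: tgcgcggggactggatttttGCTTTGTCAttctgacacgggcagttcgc
Gclm: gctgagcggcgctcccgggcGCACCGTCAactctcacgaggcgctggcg

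Genes of the integrated stress response, the program in which the factor ATF4 raises amino acid synthesis and transport, also rose. Of 40 tested 18 rose and 1 fell (median 0.47), and without DMSO hypoxia replicate 1 28 rose and 3 fell. With other libraries left out 0 to 15 rose. Slc7a11, the cystine transporter, which is also an NRF2 target, went from 4.31, 6.55 and 5.15 to 12.1, 11.2 and 10.6 FPKM (0.97 ± 0.15). Atf3, a stress-induced factor, went from 6.64, 6.84 and 5.76 to 13.2, 12 and 14.6 (0.94 ± 0.12), and the hormone gene Stc2 from 0.393 ± 0.0351 to 1.47 ± 0.210 (0.82). Stc2 reached the filter only through the MLN4924 group, so it could only be higher. Without it 17 of 39 genes rose and 1 fell (median 0.44). Phgdh, which starts serine synthesis, rose from 243 to 420 and Chac1, which degrades glutathione, from 42.0 to 68.7. Atf5, another factor of the program, was the one member that fell, from 79.8 ± 3.83 to 51.4 ± 4.35 FPKM (-0.63, adjusted p = 0.0124). Its call ended without any one of the MLN4924 hypoxia libraries. Atf4 transcripts were at 410, 349 and 321 FPKM with DMSO and at 366, 359 and 357 with MLN4924 (0.01, adjusted p = 0.959). For Ddit3, which encodes CHOP, the change was 0.36 on the log2 scale (adjusted p = 0.109) with all libraries and 0.48 without DMSO hypoxia replicate 1 (adjusted p = 0.00522).

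Other stress programs changed to different degrees. Shares of all genes were 5.40% higher and 5.63% lower, and 13.1% and 11.7% without DMSO hypoxia replicate 1. Of 26 genes of the unfolded protein response of the endoplasmic reticulum 0 rose and 1 fell, and 2 rose and 4 fell without DMSO hypoxia replicate 1. The gene that fell with all libraries, Xbp1, its main transcription factor, went from 55.3 ± 5.29 to 35.0 ± 1.88 FPKM (-0.64, adjusted p = 0.0135). The Xbp1 call ended without any one of the MLN4924 hypoxia libraries. Of 21 heat shock genes 3 rose and 0 fell, and 9 rose and 4 fell without DMSO hypoxia replicate 1. With any other library left out 0 to 2 rose. The 3 were Hspd1, the mitochondrial chaperonin, from 96.3 ± 9.98 to 167 ± 3.56 (0.79), Hspb8, a small heat shock protein (0.37), and Hspa4, a cochaperone of HSP70 (0.33).

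Genes of the hypoxia response were mostly lower with the inhibitor. HIF is the transcription factor stabilised at low oxygen, and its targets include most enzymes of glycolysis. Of 22 tested glycolysis genes 0 rose and 11 fell, with a median log2 fold change of -0.51, and 17 fell without DMSO hypoxia replicate 1. With other libraries left out 0 to 7 fell, the fewest without MLN4924 hypoxia replicate 1. Ldha, lactate dehydrogenase A, went from 2347, 1905 and 1860 to 1242, 1215 and 1144 FPKM (-0.76 ± 0.12, adjusted p = 0.0175), and Pgk1, phosphoglycerate kinase, from 2556 to 1511 on average (-0.75). Aldoc, an aldolase, fell from 9.54 ± 1.94 to 3.82 ± 0.356 (-1.12), and Pfkp, a phosphofructokinase, from 81.9, 81.1 and 71.5 to 43.8, 47.2 and 38.5 (-0.84 ± 0.10). DMSO hypoxia replicate 1 was the highest of the controls for Ldha and Aldoc, and without it their log2 fold changes were -0.65 and -0.97. Because FPKM per library is a share of the RNA in a culture, fewer cells of a kind and less RNA per cell cannot be told apart here or elsewhere below.

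Of 39 HIF targets outside glycolysis 4 rose and 16 fell (median -0.40), and 5 rose and 23 fell without DMSO hypoxia replicate 1. With other libraries left out 4 to 13 fell, the fewest without MLN4924 hypoxia replicate 1, and 1 to 4 rose, the fewest without DMSO hypoxia replicate 3. Ankrd37, an ankyrin repeat protein, went from 57.6, 45.2 and 41.4 to 14.7, 15.2 and 13.8 FPKM (-1.64 ± 0.13), Ndrg1 from 696, 563 and 632 to 287, 324 and 307 (-1.04 ± 0.10), and Bhlhe40, a transcriptional repressor, from 129, 118 and 129 to 61.8, 62.7 and 61.0 (-1.01 ± 0.07). Car9, which acidifies the surroundings of hypoxic cells, fell from 297 to 171, the angiogenic factor Vegfa from 139 to 100, and the HIF prolyl hydroxylases Egln1 and Egln3 from 113 to 67.0 and from 25.6 to 15.8. Those that rose included the transferrin receptor Tfrc, from 10.3, 18.4 and 13.2 to 30.1, 27.9 and 29.1 FPKM (1.04 ± 0.19), Stc2 and Hmox1. Stc2 is also a member of the stress response list and Hmox1 of the NRF2 list. Without Stc2, which reached the filter only through the MLN4924 group, 3 of 38 rose and 16 fell (median -0.41). Hif1a transcripts were at 28.6, 26.3 and 31.5 FPKM with DMSO and at 30.2, 28.1 and 29.5 with MLN4924 (0.03, adjusted p = 0.874), with overlapping groups. Vhl, the receptor of the HIF ligase, gave -0.38 (adjusted p = 0.0858), and -0.27 without DMSO hypoxia replicate 1 (adjusted p = 0.029).

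The hypoxia response element core ACGTG, the letters bound by HIF, was found on either strand in 6 of 12 fallen HIF targets with a promoter entry and in 6 of 11 fallen glycolysis genes, and in 26.0% of tested genes. Among all members with an entry, fallen or not, 17 of 29 HIF targets and 11 of 22 glycolysis genes held it. Stretches are shown for Bnip3 (chr7:138909589-138909634, minus strand), Ldha (chr7:46845639-46845794, plus strand; in 1 of its 2 entries) and Pgk1 (chrX:106186930-106186993, plus strand). Capitals mark the core; CACGT is the same core on the other strand, and CACGTG holds both.
Bnip3: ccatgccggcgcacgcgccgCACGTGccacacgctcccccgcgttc
Ldha: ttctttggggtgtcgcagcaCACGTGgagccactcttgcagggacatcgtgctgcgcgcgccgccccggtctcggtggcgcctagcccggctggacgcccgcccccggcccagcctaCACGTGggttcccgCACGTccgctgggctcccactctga
Pgk1: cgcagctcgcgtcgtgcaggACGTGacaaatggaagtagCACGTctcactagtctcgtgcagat

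Cell cycle genes divided by phase. Of 42 genes of G2/M and mitosis 0 rose and 15 fell (median -0.31), and 24 fell without DMSO hypoxia replicate 1. With other libraries left out 0 to 11 fell. Ube2c, the ubiquitin-conjugating enzyme of the anaphase-promoting complex, went from 216, 161 and 164 to 106, 97.4 and 102 FPKM (-0.81 ± 0.13, adjusted p = 0.0161), and Ccnb2, cyclin B2, from 187, 144 and 151 to 90.8, 96.6 and 86.1 (-0.80 ± 0.12). Cdc25c, the phosphatase that activates CDK1, fell from 15.3 ± 2.77 to 8.63 ± 0.925 (-0.76). Also lower were the kinases Aurka and Plk1, from 57.4 to 39.6 and from 78.4 to 58.6 FPKM, and Cdc20, an activator of the anaphase-promoting complex, from 105 to 67.9. DMSO hypoxia replicate 1 was the highest control library for Ube2c, Ccnb2 and Cdc25c, and all 3 kept their calls without it. All 3 lost their calls without any one of the MLN4924 hypoxia libraries.

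Genes of S phase pointed the other way. Of 41 tested 7 rose and 0 fell (median 0.15), 11 rose without DMSO hypoxia replicate 1, and 0 to 3 rose with other libraries left out. Among all tested genes 5.40% rose and 5.63% fell, and 13.1% and 11.7% did so without DMSO hypoxia replicate 1. Ccne1, cyclin E1, went from 9.61, 10.2 and 8.92 to 15.9, 14.4 and 14.9 FPKM (0.61 ± 0.09), and the transcription factor gene E2f3 from 0.957 ± 0.384 to 3.70 ± 0.396 (1.28). In the list of CRL4 substrates and replication licensing 1 of 23 rose, near the share of all genes. This gene was Mcm10, from 7.2, 12.9 and 10.8 to 18.1, 18.9 and 18.8 (0.82, adjusted p = 0.0476). Without DMSO hypoxia replicate 1, 6 rose and 1 fell, and 0 to 1 rose with other libraries left out. The call of Mcm10 ended without DMSO hypoxia replicate 3 and without any one of the MLN4924 hypoxia libraries. Cdt1, the licensing factor that cullin-RING ligases degrade, gave 0.20 (adjusted p = 0.129). Cdkn1a, the CDK inhibitor p21, was at 171, 155 and 157 FPKM with DMSO and at 138, 134 and 135 with MLN4924 (-0.25 ± 0.07, adjusted p = 0.0772), without overlap. Its adjusted p without DMSO hypoxia replicate 1 was 0.0151. Of 32 DNA repair genes 0 rose and 1 fell (2 and 3 without DMSO hypoxia replicate 1), no more than the shares of all genes. The fallen gene was the histone gene H2ax, from 77.0 ± 10.5 to 48.7 ± 2.84 (-0.64). Its call ended without DMSO hypoxia replicate 3 and without any one of the MLN4924 hypoxia libraries.

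The cell cycle genes homology region, written TTTGAA in the search on both strands, is a known regulatory element of mitotic genes. It was in 5 of 14 fallen G2/M genes with a promoter entry and in 12.7% of tested genes. Among all 35 G2/M genes with an entry, fallen or not, 12 held it. It is shown in capitals for the 2 members that fell most, Ube2c (chr2:164769880-164769925, plus strand) and Ccnb2 (chr9:70421696-70421741, minus strand).
Ube2c: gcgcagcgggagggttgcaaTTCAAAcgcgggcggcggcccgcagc
Ccnb2: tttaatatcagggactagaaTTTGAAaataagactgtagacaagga

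The series title concerns apoptosis, and genes that promote it changed in both directions. Of 32 genes that promote apoptosis 3 rose and 4 fell (median 0.03), where 5.40% and 5.63% of all genes did. Without DMSO hypoxia replicate 1, 7 rose and 5 fell (all genes 13.1% and 11.7%). Whether the list differs from all genes was not tested. Pmaip1, the BH3-only protein NOXA, went from 2.97, 2.69 and 3.25 to 4.48, 4.50 and 4.78 FPKM (0.49 ± 0.11, adjusted p = 0.0438). The other risen genes encode mitochondrial proteins released in apoptosis, Htra2 from 25.1 ± 4 to 37.3 ± 2.38 (0.56) and Aifm1 from 44.7 ± 2.67 to 61.0 ± 1.11 (0.44). All 3 calls ended when any one library other than DMSO hypoxia replicate 1 was left out. Those that fell were Bnip3 and Bnip3l, mitophagy receptors that are also HIF targets, and the BH3-only genes Bmf and Bad. With libraries other than DMSO hypoxia replicate 1 left out 0 to 4 fell. Bnip3, Bmf and Bad lost their calls without DMSO hypoxia replicate 3 and without any one of the MLN4924 hypoxia libraries. Bnip3 went from 1105, 680 and 746 to 411, 462 and 412 FPKM (-0.94 ± 0.19), and -0.73 without replicate 1. Bmf fell from 1.79 ± 0.337 to 0.463 ± 0.0681 (-0.93) and Bad from 26.7 ± 6.29 to 15.7 ± 0.319 (-0.70). Bmf reached the filter only through the DMSO group, so it could only be lower. Without it 3 of 31 genes rose and 3 fell (median 0.04).

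Several central regulators of apoptosis did not pass. Bcl2l11, which encodes BIM, and Bbc3, which encodes PUMA, had log2 fold changes of -0.10 and 0.15 (adjusted p = 0.677 and 0.563), and their groups overlapped. Of 14 genes that oppose apoptosis 1 rose and 0 fell: Bag1, a cochaperone that binds BCL2, from 75.4 ± 5.94 to 101 ± 3.29 (0.41, adjusted p = 0.0291). Its call ended when any one library other than DMSO hypoxia replicate 1 was left out; with that library left out 1 gene of the list rose and 2 fell. Mcl1 was at 62.3, 47.5 and 48.8 FPKM with DMSO and at 40.8, 41.7 and 41.7 with MLN4924 (-0.33, adjusted p = 0.119), and Bcl2l1, which encodes BCL-XL, gave 0.09 (adjusted p = 0.801). Without DMSO hypoxia replicate 1 Mcl1 passed with -0.21 (adjusted p = 0.0249) and Birc5, the gene of survivin, with -0.23 (adjusted p = 0.0393), where all libraries gave adjusted p of 0.119 and 0.156.

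Of 33 p53 targets 8 rose and 1 fell (median 0.07), 9 rose and 2 fell without DMSO hypoxia replicate 1, and 0 to 5 rose with other libraries left out. Dusp4, a phosphatase of MAP kinases, went from 6.40, 12.2 and 11.7 to 25, 24.3 and 21.9 FPKM (1.20 ± 0.23), Eda2r, a receptor of the TNF receptor family, from 1.20 ± 0.140 to 3.69 ± 0.291 (1.09) and the polo-like kinase gene Plk2 from 20.9 ± 3.95 to 40.9 ± 1.95 (0.95). Ccng2, a cyclin linked to arrest, fell from 67.1 ± 10.4 to 44.5 ± 1.38 (-0.57). Trp53 was at 1476 ± 114 and 1534 ± 89.9 FPKM (0.06, adjusted p = 0.754); values per gene do not separate the introduced p53 mutant from the cells' own transcripts.

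Interferon-stimulated genes, which carry antiviral functions, were higher with the inhibitor. Of 39 tested 13 rose and 0 fell (median 0.52), and 24 rose and 1 fell without DMSO hypoxia replicate 1. With other libraries left out 1 to 11 rose, the fewest without MLN4924 hypoxia replicate 3. Ifi44 went from 7.91, 7.08 and 9.00 to 25.8, 27.7 and 27.4 FPKM (1.64 ± 0.11, adjusted p = 0.00144), Rsad2, the antiviral enzyme viperin, from 2.77, 1.81 and 2.62 to 5.56, 5.16 and 5.86 (0.95 ± 0.15), and Mx2, a dynamin-like GTPase, from 3.22, 3.62 and 3.03 to 6.31, 6.24 and 7.62 (0.85 ± 0.13). Isg15, the ubiquitin-like modifier, rose from 222 to 368, its protease Usp18 from 23.7 to 42.0, and Irf7, a regulator of interferon genes, from 34.7 to 59.1. The core of the interferon-stimulated response element, GAAA, any 2 bases and GAAA again on either strand, was in 6 of 10 risen members with a promoter entry and in 3.23% of tested genes. It is shown in capitals for the 2 of these with the largest increases, Rsad2 (chr12:26456543-26456592, minus strand) and Gbp2 (chr3:142620584-142620633, plus strand), a guanylate-binding protein that rose from 11.4 to 19.9 FPKM. Among all 31 members with an entry, risen or not, 13 held the core.
Rsad2: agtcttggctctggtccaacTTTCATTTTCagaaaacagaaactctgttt
Gbp2: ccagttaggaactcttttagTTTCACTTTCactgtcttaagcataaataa

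Of 24 tested NF-kB subunits and inflammatory targets 5 rose and 1 fell, 7 rose and 3 fell without DMSO hypoxia replicate 1, and 3 to 4 rose with other libraries left out. Besides Ptgs2 these were the chemokine Cxcl10, which interferon also induces, from 21.8, 15.8 and 16.7 to 57.5, 61.2 and 63.1 FPKM (1.70 ± 0.13), the macrophage growth factor Csf1 from 19.8, 29.9 and 24.9 to 81.7, 64.0 and 73.4 (1.53 ± 0.17), Cxcl1 from 4.13 to 9.32, and Tnfaip2 from 6.03 to 8.77. Nfkb2, an NF-kB subunit, fell from 47.2 ± 1.76 to 36.0 ± 2.39 (-0.38, adjusted p = 0.0341). The Nfkb2 call ended when any one library other than DMSO hypoxia replicate 1 was left out.

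The largest decreases included genes of epithelial differentiation, the circadian clock and chromatin. Sprr1a, a protein of the cornified envelope, was at 224, 174 and 182 FPKM with DMSO and at 16.3, 17.1 and 12.4 with MLN4924 (-3.58 ± 0.15, adjusted p = 2.73e-04), and its relative Sprr2a2 went from 12 ± 0.960 to 2.35 ± 1.07 (-2.01). Klf2, a transcription factor of vascular quiescence, went from 20.4, 15.8 and 14.7 to 1.00, 1.13 and 1.18 (-3.08 ± 0.15). The clock output factor Dbp was nearly lost, from 9.22, 6.23 and 6.92 to 0.290, 0.480 and 0.160 FPKM (-2.68 ± 0.18), and the clock repressor Nr1d1 went from 32.0, 32.0 and 41.5 to 6.42, 6.70 and 4.56 (-2.40 ± 0.17). H1f0, the linker histone of arrested and differentiated cells, fell from 812 ± 55.2 to 173 ± 14.4 (-2.22), Mt2, a metallothionein, from 892 ± 135 to 243 ± 30.3 (-1.87), and Htra3, a secreted protease, from 13.6 ± 0.214 to 2.95 ± 0.525 (-1.89). Among these the call of Sprr2a2 ended without MLN4924 hypoxia replicate 3 (adjusted p = 0.053). The remaining 4 of the 12 largest decreases were the gene models Gm3219, Gm37752, Gm5831 and 2500002B13Rik. The calls of the last of these and of Gm5831 ended under 7 and 6 of 14 alternatives. Dbp and Gm3219 reached the filter only through the DMSO group, so they could only be lower.

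Immediate early genes, the first responders to growth factors, split into 6 that rose and 4 that fell of 21 tested, into 7 and 5 without DMSO hypoxia replicate 1, and into 1 and 2 without MLN4924 hypoxia replicate 1. Dusp6, a phosphatase induced by ERK signalling, went from 5.36, 7.45 and 6.83 to 23.8, 20.4 and 24.9 FPKM (1.68 ± 0.14), Myc from 7.25 ± 1.51 to 17.5 ± 2.03 (1.18) and Klf5 from 3.01 ± 0.351 to 6.47 ± 0.848 (0.90). Besides Klf2, the AP-1 gene Junb fell from 284 ± 25.2 to 138 ± 3.41 (-1.03) and Egr1 from 12.2 ± 2.18 to 5.46 ± 0.105 (-1.02).

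For ribosome assembly in the nucleolus 9 of 24 genes rose and 0 fell (median 0.57), with 18 higher without DMSO hypoxia replicate 1 and 0 to 8 with other libraries left out. Mybbp1a, a nucleolar MYB-binding protein, went from 20.6, 34.3 and 28.5 to 67.0, 62.1 and 62.8 FPKM (1.20 ± 0.18), Ddx21, an RNA helicase, from 19.1 ± 2.91 to 34.1 ± 2.45 (0.82) and Rrp12 from 2.82 ± 0.310 to 5.56 ± 0.650 (0.78). The ribosomal proteins themselves did not: 0 of 45 changed, with a median of 0.02. Their transcripts are short, and without DMSO hypoxia replicate 1 23 rose and 0 fell with a median of 0.18. Proteasome subunits gave 0 changed of 32 with all libraries and 15 higher without that library.

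In cholesterol synthesis and uptake 5 of 27 genes rose and 1 fell (8 and 1 without DMSO hypoxia replicate 1), with 0 to 4 higher when libraries other than DMSO hypoxia replicate 1 were left out. The shares of all genes were 5.40% higher and 5.63% lower, and 13.1% and 11.7% without DMSO hypoxia replicate 1. Msmo1 went from 31.1 ± 4.14 to 51.7 ± 0.950 FPKM (0.72), Nsdhl from 15.3 ± 0.791 to 25.6 ± 0.914 (0.71) and Hsd17b7 from 3.39 ± 0.615 to 5.93 ± 0.503 (0.66), all enzymes of the pathway, whereas Srebf1, a sterol-regulated transcription factor, fell from 29.0 ± 1.24 to 18.7 ± 1.84 (-0.61). Collagens and matrix genes were divided, 4 higher and 4 lower of 33 (9 and 10 without DMSO hypoxia replicate 1, at most 2 and 0 without any other library). Basement membrane Col4a1 rose from 58.7 ± 12.4 to 96.9 ± 3.04 (0.74), the urokinase receptor Plaur from 13.1 ± 1.18 to 21.0 ± 0.873 (0.65) and the lysyl oxidase Loxl3 from 13.4 ± 1.48 to 20.5 ± 0.721 (0.58). The fibrillar collagens Col1a1, from 575, 739 and 739 to 474, 451 and 470 FPKM (-0.55 ± 0.12), and Col3a1 (-0.50) fell, as did Col6a1 (-0.63). Of 35 autophagy and lysosome genes 1 rose, the cargo receptor Sqstm1 (0.45), and 1 fell, the proton pump subunit Atp6v0d1 (-0.74). Both counts lay below the shares of all genes. The counts were 2 and 7 without DMSO hypoxia replicate 1, and with other libraries left out 0 to 1 did in each direction. Of 41 nuclear-encoded respiratory chain genes and 13 mitochondrially encoded transcripts 0 changed. Without DMSO hypoxia replicate 1 6 rose and 1 fell, and 1 rose and 2 fell, near or below the shares of all genes.

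**Figure D4:**
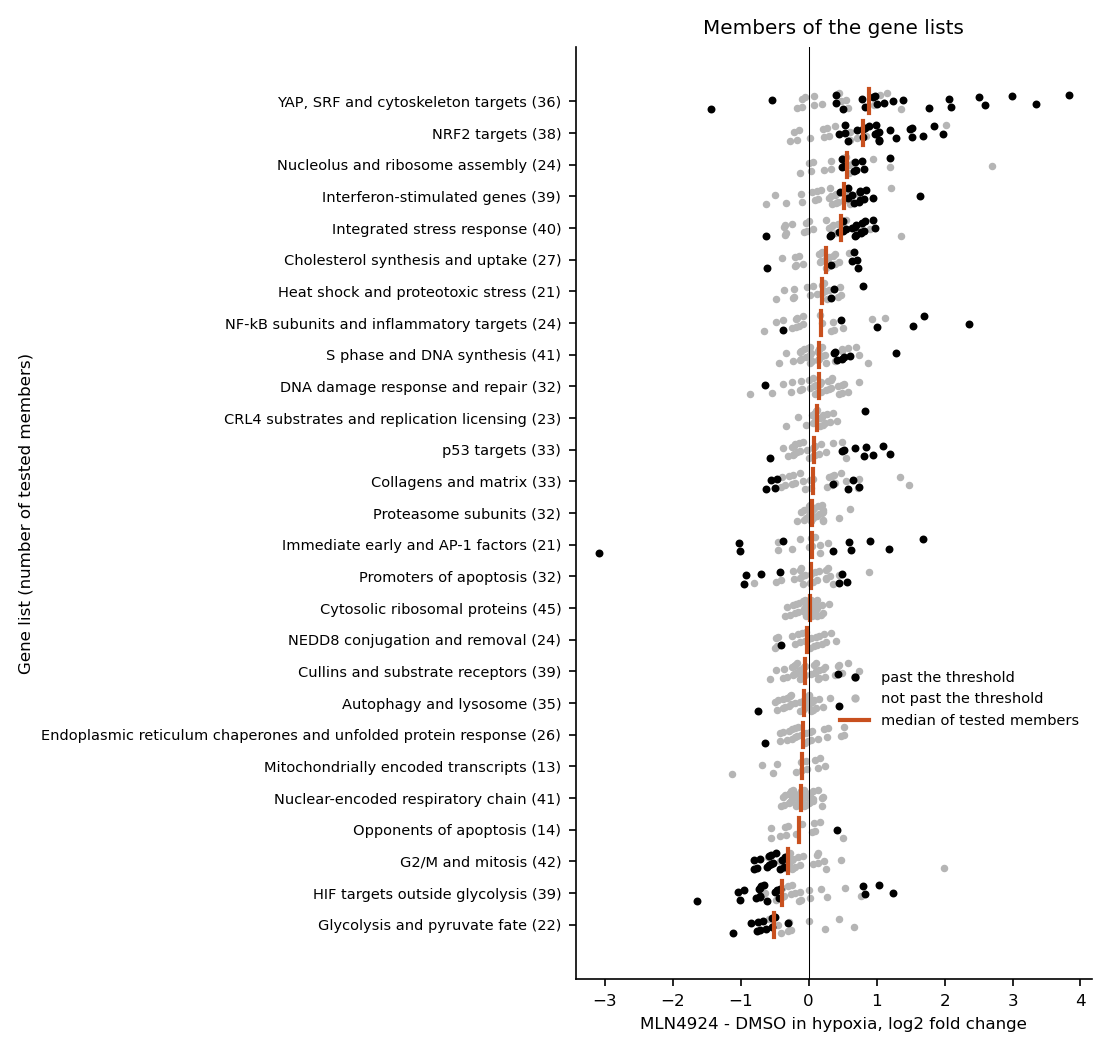
Log2 fold change of each tested member of 27 gene lists; black points passed the threshold, grey points did not, and orange bars are medians. The YAP, SRF and cytoskeleton list has the highest median (0.89) and glycolysis the lowest (-0.51) with all libraries, while without DMSO hypoxia replicate 1 NRF2 targets (0.83) lie above the YAP list (0.63); a gene can belong to more than 1 list.

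Among markers of testis cells, few of those of germ cells reached the filter. Of 22 spermatogonial markers 12 were in the table and 3 reached the filter. The most abundant of them averaged 15.0 FPKM over the 6 hypoxia libraries, while Kit and Ddx4 were at most 0.0600 FPKM. Of 20 spermatocyte and spermatid markers only Crem was tested, at 7.31 FPKM on average, and Acrv1, Odf1 and Spag6 were listed at 0 throughout. None of these 4 germ cell markers changed with all libraries, and without DMSO hypoxia replicate 1 Ret fell. The Leydig cell gene Nr5a1 was at 20.6 to 24.9 FPKM and did not change (adjusted p = 0.585). Of 6 tested Sertoli markers 3 fell: Wt1 from 6.56 to 1.96, Inha from 2.17 to 0.527 and Sox9 from 7.70 to 3.93 FPKM, while Fshr and Amh were at most 0.15. Without DMSO hypoxia replicate 1 the same 3 fell, and with other libraries left out 0 to 1 of these 6 fell. For comparison, 5.63% of all genes fell with all libraries and 11.7% without DMSO hypoxia replicate 1. The shares that rose were 5.40% and 13.1%. Inha reached the filter only through the DMSO group, so it could only be lower, and without it 2 of 5 fell. Among 7 fibroblast and peritubular markers Acta2 rose, and S100a4, from 2173 to 975, Vim, from 1240 to 755, Col1a1 and Col1a2 fell. Without DMSO hypoxia replicate 1 all 5 kept their calls, and with other libraries left out 0 to 2 fell. Myh11, which defines smooth muscle, was at most 0.0200. Of the 2 macrophage markers tested Cd68 rose from 1.49 to 3.56, whereas Itgam was listed at 0. Cd68 also rose without DMSO hypoxia replicate 1, but not without MLN4924 hypoxia replicate 1. The summed level of the macrophage list was 9.28 to 11.1 FPKM with DMSO and 12.7 to 14.5 with MLN4924. Whether any change in cell makeup took part in the results was not tested.

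To ask whether the inhibitor acted differently at low oxygen, the effect in hypoxia was compared with that in normoxia by the interaction term of a fit to all 12 libraries. The 2 effects share no library. In that fit of 12311 genes 3137 genes changed with MLN4924 in hypoxia (25.5%; 12.2% higher, 13.3% lower) and 2467 in normoxia (20%; 9.33% higher, 10.7% lower). Of these 1614 changed in both, 1556 in the same direction, which is 49.6% of the hypoxia calls and 63.1% of the normoxia calls, and 58 in opposite directions. The interaction passed for 232 genes, 1.88% of those tested, with 118 more positive and 114 more negative in hypoxia. Without DMSO hypoxia replicate 1 it passed for 678 genes (5.51%; 3.30% positive, 2.21% negative). It passed for 317 and 199 without DMSO hypoxia replicates 2 and 3, and for 90 to 131 without any one of the MLN4924 hypoxia libraries or of the 6 normoxia libraries, the fewest without MLN4924 normoxia replicate 3.

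The interferon and mitosis lists held many of these genes. Of 39 interferon-stimulated genes 13 had a positive interaction past the threshold and 0 a negative one (background 0.958% and 0.926%), 25 positive without DMSO hypoxia replicate 1 and 10 to 15 with other libraries left out. In hypoxia 23 rose and 1 fell in this fit (median 0.52), and in normoxia 0 rose and 11 fell (median -0.20). Ifi44 was at 21.9, 17.6 and 26.8 FPKM with DMSO and at 19.4, 16.5 and 21.0 with MLN4924 in normoxia (-0.20), and its interaction was 1.84 (adjusted p = 0.002). Mx2, at 12.8, 12.2 and 12.7 against 12.1, 12.8 and 12.5 in normoxia (-0.01), gave 0.85 (adjusted p = 0.0085). Ifit3b, which cannot be cleanly told from Ifit3, went from 30.8, 27.5 and 37.2 to 14.6, 17.2 and 13.4 in normoxia and had an interaction of 1.46, although its change in hypoxia did not pass (0.43, adjusted p = 0.209).

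For G2/M and mitosis the sign was opposite. Of 42 genes 18 had a negative interaction and 0 a positive one, 31 negative without DMSO hypoxia replicate 1 and 11 to 22 with other libraries left out, the fewest without MLN4924 normoxia replicate 3. In normoxia 16 rose and 0 fell (median 0.26), and in hypoxia 1 rose and 25 fell in the 12-library fit (median -0.31). Cdc20 went from 102, 102 and 97.2 to 127, 129 and 128 FPKM in normoxia and from 108, 102 and 103 to 74.2, 66.6 and 63.0 in hypoxia. Ube2c had a log2 fold change of 0.08 in normoxia and an interaction of -0.89 (adjusted p = 0.0104), and Ccnb2 gave -0.03 and -0.77. Cdkn1a showed a related pattern, from 16.7, 18.3 and 15.9 to 33.1, 33.6 and 30.9 in normoxia (0.90) against -0.25 in hypoxia, an interaction of -1.15 (adjusted p = 8.52e-04).

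For the integrated stress response, 9 of 40 genes had a negative interaction and 0 a positive one. The counts were 12 and 3 without DMSO hypoxia replicate 1, and 5 to 10 were negative with other libraries left out, the fewest without DMSO normoxia replicate 1. Trib3, a pseudokinase induced by ATF4, rose from 13.2, 14.3 and 15.6 to 27.8, 33.6 and 32.6 FPKM in normoxia but was at 94.5, 89.3 and 82.8 with DMSO and 75.8, 69.5 and 63.7 with MLN4924 in hypoxia, an interaction of -1.42. Atf4 (0.63 in normoxia, interaction -0.62) and Slc7a11 (2.19 and -1.22) had the same sign. Among NRF2 targets 4 of 39 had a positive interaction and 1 a negative one. The positive count was 1 without MLN4924 hypoxia replicate 1 and at most 5 with other libraries left out, but 15 of the 38 that also passed the 6-library filter without DMSO hypoxia replicate 1. Among 22 glycolysis genes 0 had an interaction (3 positive without DMSO hypoxia replicate 1), with medians of -0.51 in hypoxia and -0.49 in normoxia.

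Among the genes with the largest negative interactions, Sprr1a, Nr1d1 and Gm37752 fell at both oxygen levels. Nr1d1 went from 20.4, 20.9 and 20.9 to 13.8, 12.9 and 14.1 FPKM in normoxia (-0.58), an interaction of -1.82, and Sprr1a from 47.9, 46.2 and 48.0 to 9.99, 14.0 and 11.1 (-1.94), an interaction of -1.64. The gene models Gm37752 and AY036118 gave -2.08 and -1.96. Lce1g, of the late cornified envelope family, rose in normoxia (2.00) and gave 0.25 in hypoxia (adjusted p = 0.258). On the positive side Star, the cholesterol carrier of steroid synthesis, went from 11.2, 10.8 and 10.1 to 1.13, 3.54 and 1.83 in normoxia, while its hypoxia groups overlapped (0.17), an interaction of 2.13. Rgcc, a regulator of cell cycle, fell in normoxia (-1.92), not detectably in hypoxia (-0.33, adjusted p = 0.294), an interaction of 1.58. Xdh, xanthine dehydrogenase, was at 9.41, 19.6 and 18.6 FPKM with DMSO in hypoxia, where replicate 1 was the lowest, and at 31.5, 31.5 and 32.1 with MLN4924, with an interaction of 1.52; its change in hypoxia did not pass with all libraries (adjusted p = 0.0567) and passed under 5 of 15 alternatives, one of them without that library. The gene model Gm12976 gave 3.34 with an adjusted p of 0.049, and was listed at 0 in 3 of the 12 libraries. Of the 6 largest interactions in each direction, 6 in all lost their call with some library left out: those of AY036118, Gm12976 and Xdh in 9 of 12 cases, Star in 8, Lce1g in 5 and Ifit3b in 1 (without MLN4924 normoxia replicate 3).

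**Figure D5:**
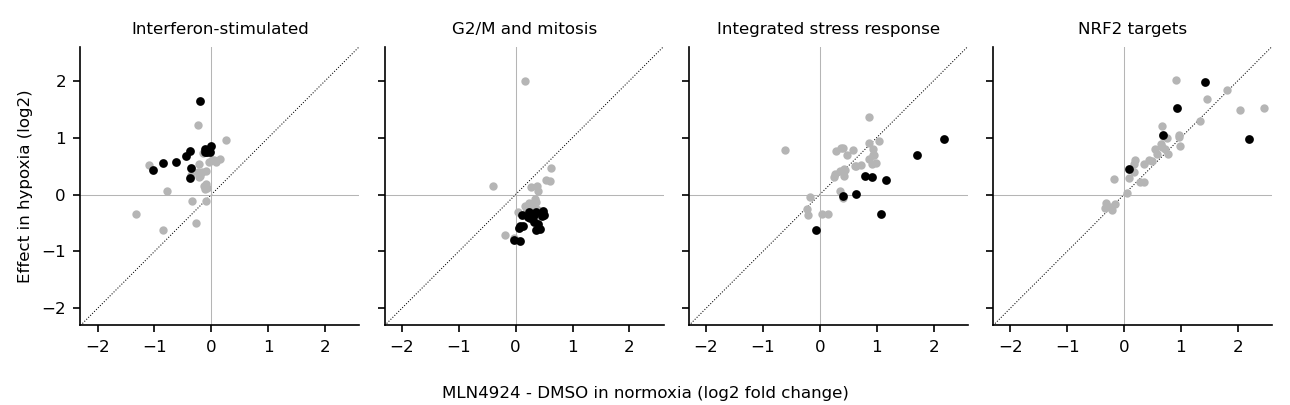
MLN4924 effect in hypoxia (vertical axis) against that in normoxia (horizontal axis), both log2 fold changes from the 12-library fit, for the members of 4 lists. Black points passed the interaction test and the dotted line marks equal effects; 37 of 39 interferon-stimulated genes lie above it, with 13 black points, and all but 2 of 42 G2/M genes below it, with 18.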

How the data were processed

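The deposited table holds FPKM, 1 column per library, computed by the authors; per the submitters' processing notes fastp, STAR and RSEM 1.3.3 were used with mm39, and the role of each tool, the annotation and the strandedness are not given in the sources used here. Reads of 150 nt are named in the labels. FPKM keeps no counts: the smallest non-zero value was 0.01 in each library, the rounding step, so depth is unknown and no counting interval is given. The number after GC in the cell type label differs between samples while all titles name GC-2, and all were taken as GC-2.

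For testing, log2(FPKM + 1) was modelled in limma 3.58.1 under R 4.3.3 (1 mean per group, trended prior variance, two-sided, Benjamini-Hochberg over all tested genes, threshold 0.05), with the 6 hypoxia libraries alone for the main comparison and all 12 for the interaction (same filter over the 12). An exact permutation test of 3 against 3 libraries cannot reach this threshold. Transcript lengths were of the longest GENCODE vM21 transcript per symbol, found for 97.6% of tested genes. Motifs were searched in 250 bases upstream of RefSeq start sites (GRCm38.p6), a different build from the files, matched by symbol only.

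The comparison, its members and the 33 gene lists were chosen with earlier results of these data known. Named genes are the 12 largest called changes in each direction (called with and without DMSO hypoxia replicate 1, at least 5 FPKM in the higher group, no overlap), the 3 largest called members of each list in each direction, 20 fixed genes, and the 6 largest interactions in each direction; further list members and the markers named were chosen after their values were seen, and a few genes that the rule names are not reported here. No same-numbered pair of a treated and a control library deviated together (correlations 0.00, -0.07 and -0.04), so no pairing was used.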

Additional observations from a re-analysis of the deposited data

Results flagged for a closer look

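The MLN4924 effect differed between hypoxia and normoxia by the interaction test of the 12-library fit for 232 genes. Genes named in the text that passed follow; each value is the log2 fold change in hypoxia minus that in normoxia. More positive in hypoxia were Acta2 (1.02) and the NRF2 targets Srxn1 (0.55) and Sqstm1 (0.36), the interferon-related genes Ifi44 (1.84), Ifit3b (1.46), Cxcl10 (1.06) and Mx2 (0.85), and Eda2r (0.75), Bhlhe40 (0.43), Cdt1 (0.37) and Hspb8 (0.28). So were Gm12976 (3.34), Star (2.13), Rgcc (1.58) and Xdh (1.52).

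More negative in hypoxia were the stress response genes Trib3 (-1.42), Slc7a11 (-1.22), Atf4 (-0.62) and Atf5 (-0.57), and the cell cycle genes Cdkn1a (-1.15), Ube2c (-0.89), Ccnb2 (-0.77) and Ccng2 (-0.69). The clock genes Nr1d1 and Dbp gave -1.82 and -1.19, the immediate early genes Egr1 and Junb -0.76 and -0.71, and the histone genes H1f0 and H2ax -0.62 and -0.55. Gm37752 (-2.08), AY036118 (-1.96), Lce1g (-1.75) and Sprr1a (-1.64) were also lower. Groups of 3 libraries are too small for the test for single outlying samples.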

How the results depend on the processing

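Counts of genes higher and lower (631 and 659) became 985 and 896 with values centred in 20 length bins, 1498 and 1639 with all 12 libraries in the fit, 1758 and 1694 with array weights, and 404 lower with no filter on low values. With each library left out in turn they ran from 80 to 1532 and from 57 to 1372, the highest without DMSO hypoxia replicate 1. Summed over the lists, 123 members higher and 62 lower became 214 and 134 with all 12 libraries and 252 and 133 with array weights, and ran from 25 to 256 and from 7 to 123 with 1 library left out. The interaction count of 232 became 843 with array weights and ran from 90 to 678 with 1 library left out. The array weight of DMSO hypoxia replicate 1 was 0.113. Other alternatives (0.1 FPKM added, at least 1 FPKM in all 6 libraries, median-of-ratios scaling, scaling to TPM) kept each count within 1.5 times, and no named gene changed sign in a fit where it passed. The cause of these differences was not tested.

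With the replicate number as a block, which the pairing check did not support, 63 genes were higher and 43 lower, 23 and 6 list members, and 7 genes had an interaction.

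FPKM gives no depth, so low values such as those of the gene models carry an unknown counting error.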
